A study of Homo sapiens with 2 samples.

Results

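*NR2F1* (ENSG00000175745) and *NR2F2* (ENSG00000185551) are the 2 genes described here, of 36601 genes listed in the count matrices of blood-generating heart-forming organoids. They were chosen by their symbols. *NR2F1* lies on chromosome 5 from 93583222 to 93594611 and *NR2F2* on chromosome 15 from 96325938 to 96340263, both on the forward strand of GRCh38. The 2 organoids, 32.7 and 33.10, were harvested on day 14 and each gave 1 single-cell library. Both were made from 1 human embryonic stem cell line, hES3 NKX2.5-eGFP, which carries a fluorescent reporter of a cardiac gene. Both received the same course of agents in Matrigel, among them CHIR and IWP2 acting on WNT signalling, BMP4, bFGF, VEGF, SCF, EPO, IL-6, IL-11, IGF-1, FLT3 ligand, IL-3 and SHH. There was no untreated organoid and no second line, so comparisons were made between cell classes within the organoids, and every p-value below measures only the spread between these 2 organoids of 1 line.

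*NR2F1* and *NR2F2* encode COUP-TFI and COUP-TFII, orphan nuclear receptors that bind DNA through a pair of zinc fingers and mostly repress transcription. COUP-TFII is known as the factor that holds venous endothelium in its venous state by restraining Notch signalling, and it takes part in lymphatic development together with PROX1. Both receptors mark atrial rather than ventricular cardiomyocytes in human stem cell cultures, and both are widely expressed in embryonic mesenchyme.

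The zinc-finger coding stretches show how close the members are and where they part. Both are given 5′ to 3′ on the forward strand from the GENCODE v44 coding sequence, *NR2F1* at chr5:93585279-93585446 and *NR2F2* at chr15:96332340-96332507, and capitals mark the bases that differ between them.
NR2F1: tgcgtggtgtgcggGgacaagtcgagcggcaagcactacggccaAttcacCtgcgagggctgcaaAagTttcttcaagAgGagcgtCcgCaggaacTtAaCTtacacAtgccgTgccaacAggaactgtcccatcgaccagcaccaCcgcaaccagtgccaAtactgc
NR2F2: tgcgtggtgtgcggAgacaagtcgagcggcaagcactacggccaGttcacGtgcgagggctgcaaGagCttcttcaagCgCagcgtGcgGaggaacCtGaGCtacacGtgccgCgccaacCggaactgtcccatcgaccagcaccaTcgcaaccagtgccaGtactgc
Of 168 bases, 18 differed, 14 of them at the last position of a codon, which left an identity of 89.3%. Over the 1224 aligned coding bases the identity was 84.2%. The longest identical run shared by the transcripts was 35 bases, and in their last 500 bases it was 10 bases. The libraries were 3′ ones, but intronic reads were counted too, so counting was not confined to those 500 bases. Each gene overlaps a long noncoding gene on the opposite strand: *NR2F1-AS1* by 2428 bases and *NR2F2-AS1* by 1424 bases. Cell Ranger was run at its defaults, which count a read only for a gene on the read's own strand.

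The libraries held 16866 and 19948 cell barcodes with 191152562 and 233818881 UMIs (unique molecular identifiers, each standing for 1 captured RNA molecule), of which 16792 and 19893 cells were kept, and 100 barcodes occurred in both libraries. Cells were assigned to a class by the summed UMIs of marker lists that hold neither member. This gave 2577 and 2607 cells of endothelium, 3751 and 3560 of mesenchyme, 1342 and 1415 cardiomyocytes, 141 and 15 of endoderm and 2226 and 4382 of blood in organoids 32.7 and 33.10, and values below keep this order. Every gene of a class list was detected in its class in both organoids, which is no check of the class since the same list chose the cells. The endoderm of organoid 33.10 rests on 15 cells. Endothelium was divided further by 9 arterial and 7 venous genes into arterial-gated, intermediate and venous-gated cells, mesenchyme into epicardial-gated and other cells, and blood into erythroid cells, megakaryocytes and myeloid cells. Levels are UMIs scaled to 1000000 UMIs of a class (CPM).

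*NR2F2* was highest in endothelium and endoderm, followed by mesenchyme, and was low in cardiomyocytes and blood. Its level was 99.7 and 79.9 CPM in endothelium, 59.7 and 69.5 in endoderm, 50.3 and 47.5 in mesenchyme, 6.20 and 5.05 in cardiomyocytes and 2.67 and 2.55 in blood. Every organoid kept the order endothelium, endoderm, mesenchyme, cardiomyocytes, blood. The mean in endothelium was 89.8 ± 14.0 CPM (SD, n = 2). Endoderm and mesenchyme, neighbours in this order, differed by less than the test could resolve (log2 fold change of mesenchyme over endoderm -0.32, adjusted p = 0.346, with 15.1% of all tested genes passing in that comparison, 8.54% higher in mesenchyme).

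Over the whole classes *NR2F1* was ordered differently, with endoderm and mesenchyme above endothelium. Its level was 24.6 and 21.1 CPM in endoderm, 20.7 and 12.1 in mesenchyme, 7.36 and 8.03 in endothelium, 0.734 and 0.337 in cardiomyocytes and 0.305 and 0.330 in blood. The cardiomyocyte values rest on 9 and 5 UMIs, and those of endoderm on 28 and 7. Mesenchyme of the organoids differed more from each other than endothelium did, yet both mesenchyme values lay above both endothelium values. Endoderm and mesenchyme again did not differ beyond the spread between organoids (-0.47, adjusted p = 0.471), and cardiomyocytes and blood, at the bottom of the order, were not set against each other by a test.

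**Figure D1:**
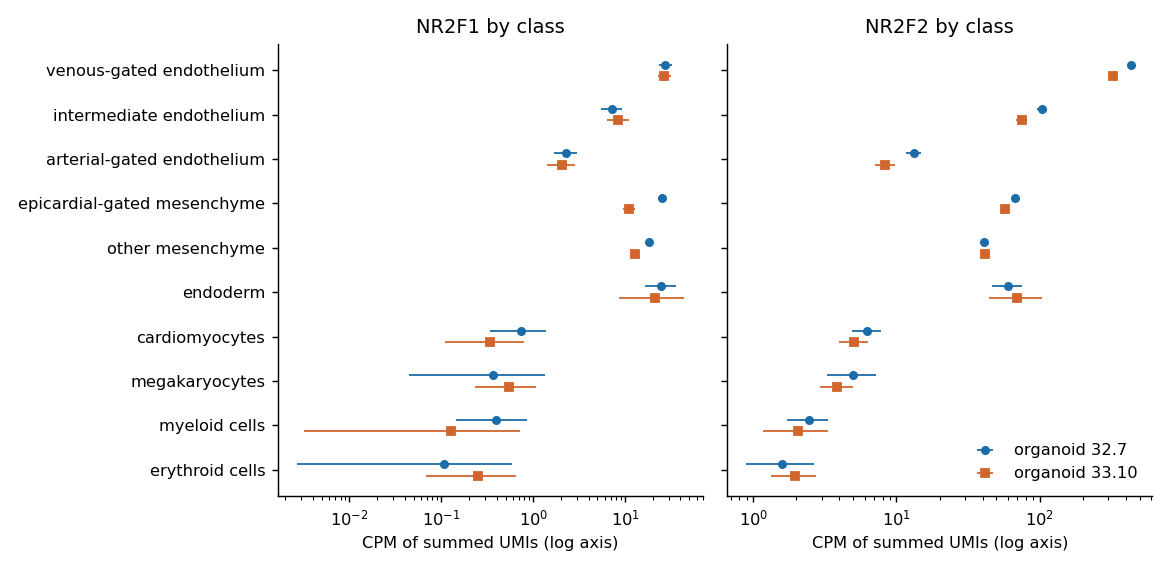
Levels of *NR2F1* and *NR2F2* in CPM, on a logarithmic axis, in the subclasses of endothelium, mesenchyme and blood, in endoderm and in cardiomyocytes, with 1 point for each organoid and bars for exact 95% Poisson intervals that cover counting error only. Venous-gated endothelium is the highest subclass for both genes, at 432 and 325 CPM of *NR2F2* and 27.4 and 26.7 CPM of *NR2F1*. Erythroid cells are the lowest for *NR2F2*, at 1.60 and 1.94 CPM.

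Between mesenchyme and endothelium, each taken whole, the members moved in opposite directions. *NR2F1* was higher in mesenchyme by 1.01 on the log2 scale (SE 0.29, adjusted p = 0.0182), while *NR2F2* was lower by a log2 fold change of -0.97 (SE 0.16, adjusted p = 0.000932). In this comparison 44.7% of all tested genes passed, so being called is common and the result about the members lies in their directions and sizes. When only cells with few UMIs of any other class list were kept, a setting chosen after seeing the data, the call for *NR2F1* was lost (log2 fold change 0.79, adjusted p = 0.0679). Endothelium held 1496 and 1437 arterial-gated cells and 383 and 444 venous-gated ones. In the venous-gated cells *NR2F1* was at 27.4 and 26.7 CPM, above the values of whole mesenchyme.

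Both members were far higher in mesenchyme and endothelium than in cardiomyocytes or blood. Mesenchyme exceeded cardiomyocytes by 4.88 for *NR2F1* (adjusted p = 2.44e-05) and by 3.03 for *NR2F2* (adjusted p = 4.4e-06), with 33.5% of tested genes passing. Endothelium exceeded cardiomyocytes by 3.87 for *NR2F1* (adjusted p = 4.7e-05) and by 4.00 for *NR2F2* (adjusted p = 4e-07), with 52.4% of tested genes passing. Against blood, mesenchyme was higher by 5.29 and 3.85 for *NR2F1* and *NR2F2*, with 56.2% of tested genes passing, and endothelium by 4.28 and 4.82, with 49.8% passing. Most of these sizes were far larger under at least 1 alternative, as given below. UMIs summed over whole classes cannot separate fewer expressing cells from less RNA per cell. The shares of cells with a UMI are given next as a further description. At a fixed depth such a share also falls when each cell holds less of the RNA. The shares therefore cannot make this separation, which was not tested.

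After every cell was thinned to 5000 UMIs, an *NR2F2* UMI was found in 21.3% and 19.7% of endothelium, 17.5% and 17.2% of mesenchyme, 3.17% and 2.01% of cardiomyocytes and 1.19% and 1.35% of blood. Erythroid cells, which should lack the gene, held one in 0.253% (exact binomial 95% interval 0.00641 to 1.40) and 1.10% (0.531 to 2.02). Their median depth before thinning was 21396.5 and 14163 UMIs, against 6906.5 and 8653 in cardiomyocytes. The cardiomyocyte share in organoid 33.10 (interval 1.27 to 3.03) overlapped the erythroid one. That of organoid 32.7 (2.08 to 4.61) lay above the erythroid one but overlapped that of its megakaryocytes, which held an *NR2F2* UMI in 1.47% of cells (0.542 to 3.17) at a median of 6622 UMIs. The share of organoid 33.10 was therefore not told apart from the erythroid background. That of organoid 32.7 was, though not from its megakaryocytes. In CPM, the cardiomyocyte intervals were 4.88 to 7.76 and 3.97 to 6.33. They lay above the erythroid ones (0.895 to 2.64 and 1.32 to 2.76) and overlapped the megakaryocyte ones (3.28 to 7.24 and 2.91 to 4.97). An *NR2F1* UMI was found in 2.65% and 3.10% of endothelium, 5.20% and 3.8% of mesenchyme, 0.244% and 0.183% of cardiomyocytes and 0.253% and 0.110% of erythroid cells. For *NR2F1* the share in cardiomyocytes was therefore not distinguishable from background in either organoid at this depth.

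Within endothelium, both members were concentrated in venous-gated cells. *NR2F2* stood at 432 and 325 CPM in venous-gated, 103 and 75.2 in intermediate and 13.2 and 8.37 in arterial-gated cells. *NR2F1* stood at 27.4 and 26.7, 7.17 and 8.47, and 2.26 and 2.04 CPM in the same order. Both genes kept this order in both organoids. Venous-gated cells exceeded arterial-gated cells by 4.94 on the log2 scale for *NR2F2* (SE 0.24, adjusted p = 2.11e-09) and by 3.47 for *NR2F1* (SE 0.37, adjusted p = 6.03e-06), in a comparison in which 20.8% of tested genes passed, 8.66% as higher in venous-gated cells. In thinned cells, *NR2F2* was detected in 73.2% and 71.0% of venous-gated and 5.01% and 2.53% of arterial-gated cells, and *NR2F1* in 10.8% and 9.74% against 0.776% and 1.07%.

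The rise along the arteriovenous balance was graded. When endothelial cells were ordered by the venous share of their arterial plus venous marker UMIs, *NR2F2* in organoid 32.7 stood at 5.51, 17.5, 50.8, 203, 360 and 519 CPM in 6 successive bins. In organoid 33.10 it stood at 4.01, 10.9, 43.0, 124, 274 and 380 CPM. *NR2F1* rose over the same bins from 1.38 to 37.5 CPM in organoid 32.7 and from 1.57 to 35.9 CPM in organoid 33.10. Neither gene fell between neighbouring bins in either organoid. These bins are groups of cells from the same organoids and were not tested. Other lists moved with the bins: the summed level of 8 mitotic genes went from 29.3 CPM in the first bin to 248, 242 and 199 in the last 3 in organoid 32.7 and from 34.8 to 335, 406 and 296 in organoid 33.10, falling in the last bin where *NR2F2* rose, and that of the mesenchyme list from 36.6 to 251 and from 29.3 to 196.

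**Figure D2:**
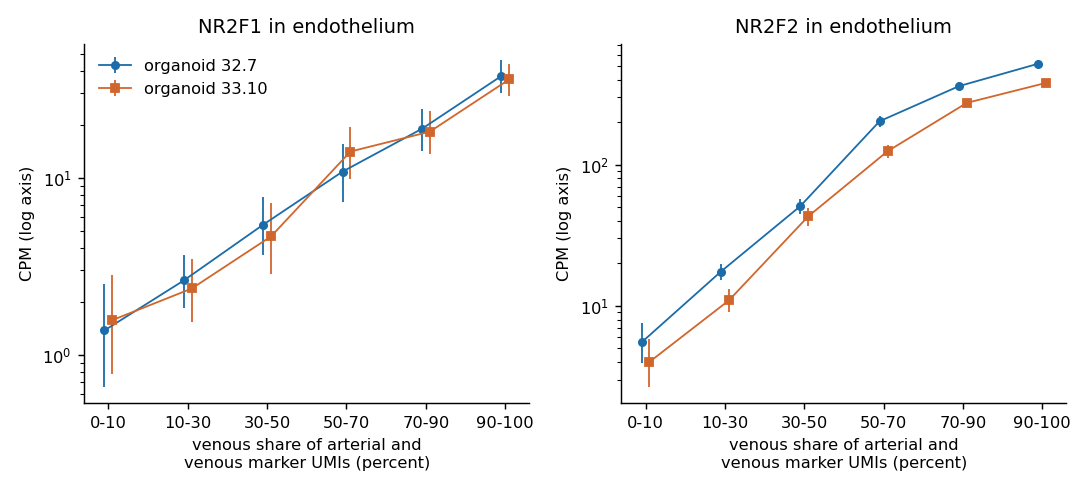
Levels of *NR2F1* and *NR2F2* in CPM, on a logarithmic axis, in 6 bins of endothelial cells by the venous share of their arterial and venous marker UMIs, with 1 line for each organoid and exact 95% Poisson intervals. *NR2F2* goes from 5.51 and 4.01 CPM in the most arterial bin to 519 and 380 CPM in the most venous one.

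Cells in division were looked at apart because the mitotic list was higher in venous-gated cells. Among venous-gated cells, those with at least 3 mitotic UMIs had 221 and 196 CPM of *NR2F2*, and the others had 488 and 384. *NR2F1* was at 24.2 and 24.9 CPM against 28.2 and 27.6 there. In mesenchyme, *NR2F2* was at 39.7 and 40.7 CPM in mitotic cells and 54.5 and 50.9 in the others, and *NR2F1* at 22.0 and 15.1 against 20.3 and 10.5. As a fraction of UMIs, *NR2F2* was thus lower in the mitotic cells of both organoids among venous-gated cells and mesenchyme, but not elsewhere. Mitotic cells were deeper, in mesenchyme with medians of 12787 and 13987 UMIs against 8797.5 and 8646. There 787 and 850 mitotic cells held 475 and 565 *NR2F2* UMIs, and 2964 and 2710 others held 1678 and 1400. *NR2F2* UMIs per cell were thus not lower in mitotic mesenchyme. They were lower in mitotic venous-gated cells of both organoids. There 58 and 99 mitotic cells held 247 and 339 *NR2F2* UMIs, and 325 and 345 others held 2059 and 1447. In arterial-gated cells *NR2F1* was higher in mitotic cells, at 6.62 and 8.24 CPM (9 and 12 UMIs) against 1.96 and 1.48, and *NR2F2* was at 12.5 and 16.5 against 13.2 and 7.64. In mitotic cardiomyocytes *NR2F2* was at 9.47 and 7.78 CPM against 5.78 and 4.77, and *NR2F1* at 2.92 and 1.41, from 4 and 2 UMIs, against 0.459 and 0.223. Without the mitotic cells the venous over arterial log2 fold change was 5.23 for *NR2F2* and 3.86 for *NR2F1*, beside 4.94 and 3.47 with them.

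Within mesenchyme the members varied less. Epicardial-gated cells had at least 3 UMIs from at least 2 epicardial genes, a minimum that deeper cells reach more easily. Their median depth was 15280 and 14384 UMIs, against 7809 and 8101 in other mesenchyme, so depth also separated these groups. *NR2F2* was at 67.4 and 57.4 CPM in epicardial-gated and 40.9 and 41.2 in other cells, higher in the epicardial-gated cells of both organoids. *NR2F1* was at 25.2 and 10.9 CPM against 18.3 and 12.7, so its direction differed between organoids. Neither passed the test (*NR2F2* log2 fold change 0.54, adjusted p = 0.710; *NR2F1* 0.16, adjusted p = 0.951), in a comparison with 0.0138% of tested genes called. With the organoid as a block *NR2F2* passed (0.53, adjusted p = 0.0463), where 124 of 21763 genes passed, against 3 without the block.

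The NR2 relatives and the antisense genes give the setting. *NR2F6*, which encodes the third COUP-TF-like receptor, was spread far more evenly, at 102 and 92.8 CPM in endothelium, 101 and 99.7 in mesenchyme, 73.8 and 63.5 in cardiomyocytes, 160 and 211 in endoderm and 41.7 and 42.7 in blood. It did not pass between mesenchyme and endothelium (-0.05, adjusted p = 0.784) and was slightly lower in venous-gated than arterial-gated cells (-0.40, adjusted p = 0.0348). Of 6 NR2 genes tested, 2 were higher and 1 lower in mesenchyme than endothelium, *NR2E3* (1.30), a photoreceptor regulator, being the other higher one. With the organoid as a block, where 11804 of 23173 genes passed, 2 were higher and 2 lower. Without the block 44.7% of all tested genes passed, 24% higher and 20.7% lower, so the first count is near the background. *NR2F1-AS1* was close to its partner in most classes, with 21.0 and 12.7 CPM in mesenchyme and 23.8 and 26.6 in venous-gated cells. Endoderm was an exception, where 28 and 7 *NR2F1* UMIs stood beside 1 and 0 of *NR2F1-AS1*.

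*NR2F2-AS1* did not follow its partner between mesenchyme and endothelium. It was at 24.6 and 24.4 CPM in endothelium and 75.9 and 82.7 in mesenchyme, higher in mesenchyme by 1.60 (adjusted p = 0.00032) where *NR2F2* was lower. Along the arteriovenous axis both went the same way, with *NR2F2-AS1* at 131 and 111 CPM in venous-gated and 1.16 and 1.64 in arterial-gated cells (6.26, adjusted p = 1.48e-09). *NR2F1-AS1* was also higher in venous-gated cells, by 3.23 (adjusted p = 5.16e-06).

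Proteins known to work with COUP-TFs were counted as a list of 12 genes. In mesenchyme against endothelium with the organoid as a block, where 11804 of 23173 genes passed, 5 were higher and 3 lower. Without the block 4 were higher and 1 lower, a share near the 44.7% of all tested genes that passed. Among the higher ones were *RXRG* (4.39), a retinoid receptor partner, and *BCL11A* (2.07) and *BCL11B* (2.03), which encode COUP-TF-interacting repressors. The lower one was *PROX1* (-0.91). Between venous-gated and arterial-gated cells, *ZFPM2*, which encodes the cofactor FOG2, was higher (1.56, adjusted p = 0.00914). The corepressor *NCOR1* was lower (-0.35, adjusted p = 0.0194) and 10 of 12 did not pass, where 20.8% of all tested genes passed. With the organoid as a block, where 6139 of 21763 genes passed, 2 were higher and 2 lower.

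The balance between the members differed by tissue. *NR2F1* made up 6.88% and 9.13% of the UMIs of both genes in endothelium, 29.2% and 20.3% in mesenchyme and 29.2% and 23.3% in endoderm. Within endothelium the share was 14.6% and 19.6% in arterial-gated, 6.49% and 10.1% in intermediate and 5.95% and 7.60% in venous-gated cells. Within mesenchyme it was 27.2% and 16.0% in epicardial-gated and 30.9% and 23.6% in other cells. For the whole classes both mesenchyme values lay above both endothelium values, and the arterial-gated values lay above the venous-gated ones in both organoids. These shares were not tested.

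**Figure D3:**
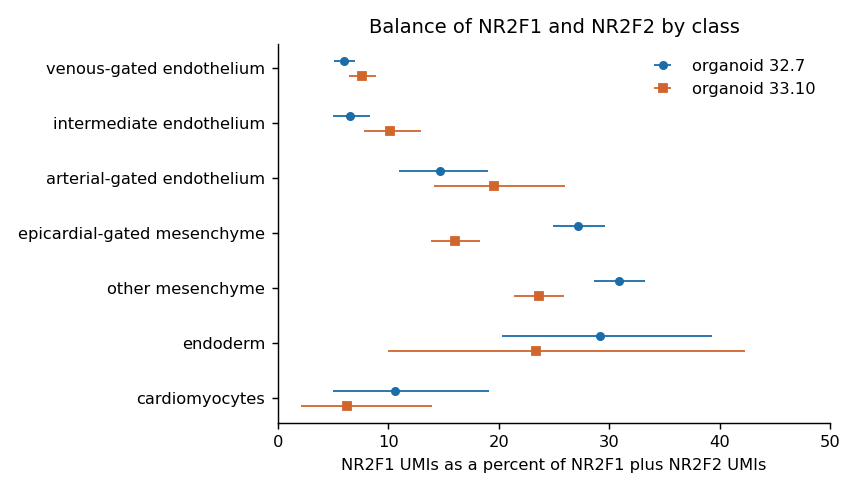
Share of *NR2F1* among the UMIs of *NR2F1* and *NR2F2* together, in percent, for the subclasses of endothelium and mesenchyme, endoderm and cardiomyocytes, with 1 point for each organoid and exact 95% binomial intervals that cover counting error only. Other mesenchyme lies at 30.9% and 23.6%, above venous-gated endothelium at 5.95% and 7.60%.

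In endothelium the members shared cells more often than independence would give. Thinned cells with both made up 1.60% and 1.59% (38 and 37 cells), against 0.565% and 0.611% under independence. *NR2F2* was detected in 60.3% and 51.4% of the *NR2F1*-positive cells and in 20.3% and 18.7% of the others. Within venous-gated cells alone the difference was small, with *NR2F2* in 82.1% and 80.5% of *NR2F1*-positive and 72.1% and 70% of other cells. In intermediate cells it was in 20% and 33.3% of *NR2F1*-positive and 29.9% and 23.4% of other cells. In arterial-gated cells it was in 18.2% and 0% against 4.91% and 2.56%. The direction thus differed between organoids in both of these subclasses, where few cells were *NR2F1*-positive.

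In mesenchyme the members did not share cells more often than independence would give. *NR2F2* was detected in 11.0% and 15.9% of *NR2F1*-positive cells and in 17.8% and 17.3% of the others. Cells with both made up 0.574% and 0.606%, where independence would give 0.908% and 0.655%. In epicardial-gated cells *NR2F2* was detected in 20.8% and 21.1% of *NR2F1*-positive and 25.9% and 21.6% of other cells, and in other mesenchyme in 6.6% and 13.3% against 14.6% and 15.3%. These are shares over cells of 2 organoids and were not tested.

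**Figure D4:**
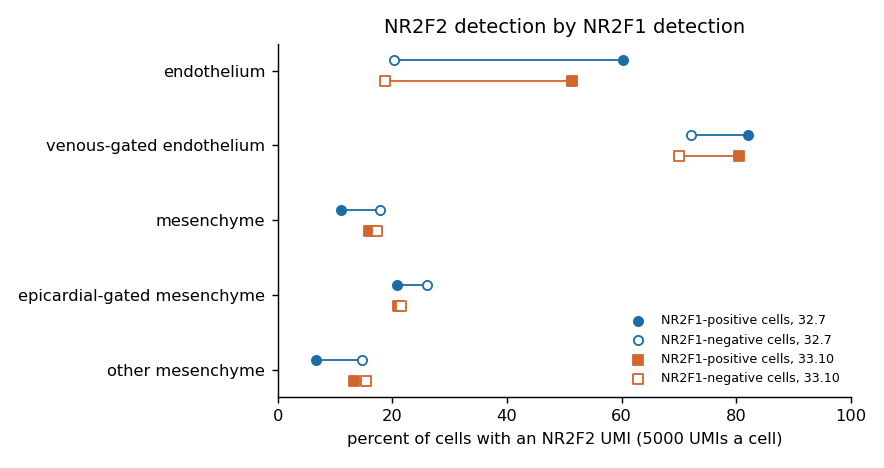
Percent of thinned cells with an *NR2F2* UMI among *NR2F1*-positive and *NR2F1*-negative cells, with a line joining both values of an organoid. The classes drawn are endothelium, venous-gated endothelium, mesenchyme, epicardial-gated mesenchyme and other mesenchyme. In endothelium the positive cells lie at 60.3% and 51.4% and the negative ones at 20.3% and 18.7%, while in mesenchyme the positive cells lie at 11.0% and 15.9%, below the negative ones at 17.8% and 17.3%.

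To see what accompanied *NR2F2* in endothelium, cells with an *NR2F2* UMI after thinning (507 and 458) were set against those with none (1871 and 1866), and the UMIs of each group were summed per organoid. The positive cells held 265 and 299 of 362 and 421 thinned venous-gated cells. They held 71 and 33 of 1417 and 1305 arterial-gated ones. The split thus overlaps the arteriovenous gate, and the part of that overlap in the calls was not tested. *NR2F1* was at 19.8 and 21.8 CPM in *NR2F2*-positive and 3.72 and 4.78 in *NR2F2*-negative endothelium. It was higher in positive cells of both organoids, by 2.20 (SE 0.27, adjusted p = 0.000172), in a comparison where 9.89% of 19017 tested genes passed, 944 (4.96%) higher and 936 (4.92%) lower, with a median log2 fold change of -0.05. With the organoid as a block 3642 genes passed. *NR2F1-AS1* rose by 2.02 (adjusted p = 0.000545) and *NR2F2-AS1* by 3.88 (adjusted p = 5.06e-06), the latter from 5.97 and 6.47 to 96.1 and 99.1 CPM, while *NR2F6* did not pass (-0.16, adjusted p = 0.514).

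Venous genes were higher in *NR2F2*-positive endothelium. Of 14 tested members of the venous list 9 rose and none fell, with a median of 1.14. With the organoid as a block 10 rose and 1 fell. The list holds the 7 genes of the venous gate, 6 of which rose by DESeq2 and with the block. *STAB2*, a hyaluronan scavenger receptor of sinusoidal and venous endothelium, was at 30.7 and 16.6 CPM against 0.811 and 1.07 (4.57, adjusted p = 1.95e-05). *FLRT2*, a guidance and adhesion receptor, was at 328 and 321 CPM against 25.9 and 24 (3.61, adjusted p = 7.55e-06). *APLNR*, the apelin receptor of venous endothelium, was at 388 and 344 CPM against 113 and 104 (1.66, adjusted p = 0.000172). All 3 are genes of the venous gate and were named for a small adjusted p, so the gap between groups is no further support.

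Arterial and Notch genes were lower. Of 20 tested members 11 fell and 1 rose, with a median of -0.90. With the organoid as a block 15 fell and 1 rose. The list holds the 9 genes of the arterial gate, of which 7 fell by DESeq2 and all 9 with the block. *CXCR4*, *UNC5B* and *SOX17*, named next, are among these gate genes. *CXCR4*, a chemokine receptor of arterial endothelium, was at 60.4 and 37.5 CPM in *NR2F2*-positive and 298 and 282 in negative cells (-2.65, adjusted p = 5.06e-06). *UNC5B*, a guidance receptor of arterial and tip cells, was at 82.2 and 69.9 against 284 and 284 CPM (-1.99, adjusted p = 6.31e-06), and *SOX17*, an arterial transcription factor, at 65.4 and 61.7 against 210 and 178 (-1.70, adjusted p = 2.04e-05). The member that rose was *HES1*, a general Notch target, at 107 and 95.8 against 55.0 and 52.2 CPM (0.82, adjusted p = 0.0178), and it did not pass when cells were called without thinning (0.64, adjusted p = 0.0744).

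The lymphatic list was mixed, with 2 of 10 members higher, 2 lower and 6 not called. *ITGA9*, an integrin of lymphatic valves, was at 315 and 346 CPM in *NR2F2*-positive against 89.9 and 93.1 in negative endothelium (1.76, adjusted p = 5.5e-05), and *FOXC2*, a valve transcription factor, at 18.4 and 11.1 against 3.47 and 2.92 (2.12, adjusted p = 0.000422). *ANGPT2*, a ligand of the TIE2 receptor, was at 53.6 and 82.4 against 360 and 353 CPM (-2.49, adjusted p = 7.48e-05). *SOX18* was lower by the main test only just (-0.75, adjusted p = 0.0412) and lost the call in 5 alternatives. *PROX1*, which sets lymphatic identity and binds COUP-TFII, did not pass (0.19, adjusted p = 0.672).

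Among 12 COUP-TF partners 1 passed in this comparison, *ZFPM2*, at 449 and 507 CPM in *NR2F2*-positive and 159 and 201 in negative endothelium (1.32, adjusted p = 0.0171). With the organoid as a block 1 was higher and 1 lower. Of all tested genes 9.89% passed without the block and 3642 of 19017 with it, so both counts are near the background. Of 7 tested epicardial genes none passed, by edgeR or DESeq2, and 0 had an unadjusted p under 0.05. So few genes do not set this count apart from the background. Of 8 mitotic genes none passed by edgeR, though 6 had an unadjusted p under 0.05, DESeq2 called 2 higher and 5 were called higher with the organoid as a block. The genes with the largest changes that met the naming rule, beside *STAB2* and *NR2F2-AS1*, were *AC012409.2* among those that rose and *UNC5B-AS1*, *KCNQ3* and *ACKR3* among those that fell. *AC012409.2* (4.04, adjusted p = 8.3e-06) is a noncoding gene on the strand of *NR2F2* that ends 24947 bases before it, and was at 23.8 and 24.5 CPM against 1.25 and 1.48. *UNC5B-AS1*, antisense to *UNC5B*, was at 2.67 and 2.74 against 29.0 and 28.3 CPM (-3.49), *KCNQ3*, a potassium channel, at 6.76 and 4.63 against 54.6 and 47.3 (-3.23), and *ACKR3*, a scavenger of the CXCR4 ligand, at 9.99 and 4.28 against 75.3 and 49.4 (-3.19).

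Markers of other cells moved with this split. The summed mesenchyme list was at 162 and 153 CPM in *NR2F2*-positive and 64.9 and 65.6 in negative endothelium, the mitotic list at 189 and 238 against 114 and 149, and the endothelium list at 3565 and 3038 against 4070 and 3623. The sums do not stand for every gene. By DESeq2, where 2488 of 19017 genes passed, 2 of 8 mesenchyme list genes rose and none fell (median log2 fold change 0.02). Of 10 endothelium list genes 2 fell and none rose (median -0.19). The part of these lists in the result was not tested.

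**Figure D5:**
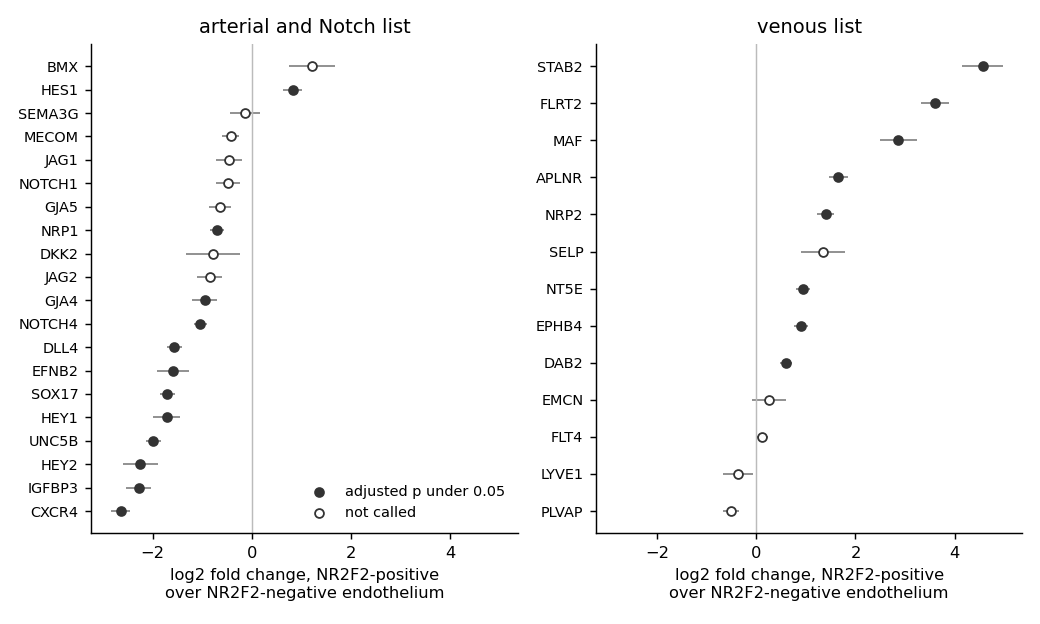
Log2 fold changes between *NR2F2*-positive and *NR2F2*-negative endothelium for the arterial and Notch list and the venous list, with 1 point a gene, bars for the standard error of the edgeR fit, filled points for an adjusted p under 0.05 and open points for the rest. Of the venous genes drawn 8 lie to the right and pass, and of the arterial and Notch list 11 lie to the left and pass.

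In mesenchyme, cells with an *NR2F1* UMI after thinning (154 and 113) were set against those with none (2810 and 2857). *NR2F2* was at 32.2 and 49.3 CPM in *NR2F1*-positive and 51.9 and 46.2 in *NR2F1*-negative mesenchyme, so its direction differed between organoids, and it did not pass (-0.27, adjusted p = 0.502), where 3.16% of tested genes passed, 333 (1.75%) higher and 267 lower. It was lower and passed with *NR2F1*-positive cells defined by 2 UMIs (-1.37, adjusted p = 0.0245) and with cells low in every other list (-1.06, adjusted p = 0.0284). *NR2F1-AS1* was at 123 and 79.3 against 15 and 9.80 CPM, the groups far apart (3.09, adjusted p = 0.0003). *NR2F2-AS1* was at 29.0 and 66.7 against 79.4 and 81.1 CPM and did not pass (-0.78, adjusted p = 0.170) except with the organoid as a block (-0.80, adjusted p = 0.0476), without the low-count filter and at 2 UMIs.

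The lists were then counted in this split, where 3.16% of tested genes passed, 1.75% higher and 1.4% lower. With the organoid as a block 1577 of 19017 genes passed. Lists this short hold too few genes to set a count of 1 apart from these shares. Of 10 tested genes of the sinus venosus and posterior heart field 1 rose, *TBX3*, a repressor that shapes the conduction system, at 126 and 105 CPM in *NR2F1*-positive against 42.3 and 33.6 in negative cells (1.65, adjusted p = 0.00298). Of 7 epicardial genes 2 fell, *TCF21* and *KRT19*, and with the organoid as a block 3 fell and 1 rose. *TCF21*, a transcription factor of epicardial and fibroblast progenitors and a gene of the mesenchyme gate, was at 58.9 and 87.8 against 126 and 159 CPM (-0.95, adjusted p = 0.0104), and *KRT19*, a keratin, fell by 1.12 (adjusted p = 0.0468), and came to -1.21 (adjusted p = 0.0609) without predicted doublets. Of 12 partners *BCL11A* fell, from 41.4 and 34.3 to 9.81 and 20.4 CPM (-1.37, adjusted p = 0.0175). Its call was lost at 2 UMIs (-1.66, adjusted p = 0.0984). Of 10 hedgehog genes 1 fell, *CDON*, a hedgehog co-receptor, at 9.03 and 10.8 against 25.1 and 19.6 CPM (-1.15, adjusted p = 0.0212), a call lost with stricter gates, at 2 UMIs and with cells low in other lists, and with the organoid as a block 2 fell. None of 8 mitotic genes passed, by edgeR or by DESeq2, and 1 had an unadjusted p under 0.05.

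Lists of other tissues had members that passed in both directions in *NR2F1*-positive mesenchyme, where 1.75% of tested genes were called higher and 1.4% lower. *CCL21*, a lymphatic chemokine, fell by 2.33 on the log2 scale (adjusted p = 0.000817), *RELN*, an extracellular glycoprotein, by 1.97 (adjusted p = 0.0256), and *FOXC2* rose by 1.67 (adjusted p = 0.0227). *SOX17* (1.61, adjusted p = 0.00955) and *GJA4* (1.57, adjusted p = 0.0302), an arterial gap junction gene, were the 2 of 20 arterial genes that rose, and *NT5E* (1.14, adjusted p = 0.0137) was among 2 of 14 venous ones. With the organoid as a block, where 1577 of 19017 genes passed, 6 arterial genes rose and 1 fell, and 3 venous genes rose and 1 fell. *HAND1*, a factor of left ventricular progenitors, fell most clearly among 4 of 14 ventricular genes (-2.14, adjusted p = 0.00428), with 1 that rose, and with the block 5 fell and 3 rose. The genes named by size were *AREG*, an EGF receptor ligand, at 52.2 and 24 against 4.90 and 5.78 CPM (2.92), *KLHL14* at 27.5 and 48.7 against 6.53 and 4.08 (2.83), *CNTNAP4*, a neuronal adhesion protein, at 0.785 and 9.02 against 53.8 and 41.4 (-3.48), *IGKC*, an immunoglobulin light chain gene (-3.42), and the noncoding *AC106729.1* (-3.63). The calls of *GJA4*, *SOX17*, *FOXC2*, *RELN*, *AREG* and *IGKC* were each lost in at least 1 alternative, with stricter gates, predicted doublets removed, 2 UMIs for a positive cell, unthinned calls, 10% of the profile removed or cells low in other lists.

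Summed neural crest and glial markers stood at 287 and 127 CPM in *NR2F1*-positive and 85.3 and 45.6 in negative mesenchyme. Neural markers stood at 391 and 268 against 236 and 240, and the endothelium list at 551 and 446 against 394 and 366. These sums do not stand for every gene. By DESeq2, where 1072 of 19017 genes passed, none of 3 tested neural crest and glial genes did (median log2 fold change -0.45). None of 3 neural genes passed (median 0.29), and 1 of 10 endothelium genes rose (median -0.18). With the organoid as a block 1, 1 and 2 genes of these lists rose. Other lists were lower in the *NR2F1*-positive cells of both organoids, the cardiomyocyte list at 358 and 376 against 626 and 677 CPM, the erythroid list at 204 and 389 against 650 and 1041, and the epicardial list at 389 and 495 against 849 and 700. The part of all these lists in the differences was not tested.

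Cardiomyocytes with an *NR2F2* UMI after thinning numbered 26 and 22, against 794 and 1071 with none. By overlap of intervals, which is no test, their share was not told apart from that of erythroid cells in organoid 33.10 or of megakaryocytes in organoid 32.7. The *NR2F2* CPM of all cardiomyocytes lay above that of erythroid cells in both organoids, and its intervals overlapped those of megakaryocytes. Whether the cells with a UMI express *NR2F2* themselves was not tested, so the split is given only as a description of cells that held a UMI. Of 19017 genes 44 passed, which is 0.231%, with 14 (0.0736%) lower. *NR2F1* was at 14.0 and 8.42 against 0.382 and 0.147 CPM, from 4 and 2 UMIs in each group. Of the venous list, *FLT4*, the VEGF-C receptor, was at 17.5 and 25.2 against 1.62 and 1.40 CPM, *DAB2*, an endocytic adaptor, at 48.9 and 58.9 against 11.9 and 12.2, *PLVAP*, a component of endothelial fenestrae, at 73.4 and 46.3 against 11.8 and 10.6, and *NT5E*, an ectonucleotidase, at 24.5 and 16.8 against 1.34 and 2.36. The summed atrial list was at 11221 and 7755 CPM against 11283 and 9701, and the ventricular list at 5810 and 6080 against 7200 and 7010. Of 16 atrial genes tested 1 fell and none rose, both by DESeq2 (332 genes passed) and with the organoid as a block (162 passed). Of 14 ventricular genes 1 rose by DESeq2 and 1 fell with the block. Cells with an *NR2F1* UMI numbered 2 and 2, too few for a split.

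Endothelial markers were higher in these cells. The summed endothelium list was at 332 and 379 CPM in *NR2F2*-positive and 104 and 90 in negative cardiomyocytes, the blood list at 171 and 358 against 82.8 and 130, and the mesenchyme list at 503 and 568 against 399 and 384. The cardiomyocyte list was at 25342 and 19381 against 26799 and 23800 CPM. Without predicted doublets the positive cells were 16 of 750 (2.13%) and 9 of 982 (0.916%), and with cells low in every other list 8 of 437 (1.83%) and 5 of 617 (0.810%), too few to test.

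Across 10 subclasses each member was among the 5 genes most like the other. The likeness is Pearson's r of log2(CPM + 1), taken in each organoid alone over 13292 genes and ranked by the lower value. Between *NR2F1* and *NR2F2* it was 0.910 and 0.966. The other 4 most like *NR2F1* were *ADGRG6* (0.987 and 0.934), an adhesion receptor, *FLRT2* (0.946 and 0.931), a gene of the venous gate, *KDELR2* (0.924 and 0.918) and *FLRT3* (0.969 and 0.916). Those most like *NR2F2* were *AC016745.1* (0.962 and 0.949), *GPR137C* (0.940 and 0.952), *HAPLN3* (0.931 and 0.911) and *FAM111B* (0.911 and 0.965). *NR2F2-AS1* ranked at 18 for *NR2F2*, while *NR2F1-AS1* ranked at 835 for *NR2F1*. These points share their libraries, and the venous-gated cells and the endoderm were the highest subclasses for most of these genes.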

How the data were processed

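The authors deposited, for each of 2 organoids, a filtered matrix of raw UMI counts per gene and cell made with Cell Ranger 7.0.0 (GRCh38, intronic reads included, per the paper's methods), and these counts were used as deposited. Cells with at least 50 and at most 11000 genes and under 30% mitochondrial UMIs were kept. The members and all gene lists were chosen with earlier results of these data known. A cell joined a class when the UMIs of its marker list reached a minimum (endothelium 15, mesenchyme 10, cardiomyocytes 40, endoderm 10, blood 10). A minimum of list genes with a UMI (5, 4, 5, 3 and 3 in the same order) was also required. No other list was to reach both of its minima. Arterial-gated cells had at most 30% and venous-gated cells at least 70% venous UMIs among at least 10 arterial plus venous UMIs. Predicted doublets (Scrublet in scanpy 1.11.5) were kept and removed in an alternative. In organoid 32.7 its own threshold marked 0% of cells, so the 2257 top-scoring cells (13.4%) were taken, against 4089 (20.6%) by its threshold in organoid 33.10.

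UMIs were summed per class and organoid and tested with edgeR 4.0.16 in R 4.3.3 (quasi-likelihood test, TMM, filterByExpr, Benjamini-Hochberg adjustment over all genes tested), all classes of a fit together, and a gene passed at an adjusted p under 0.05. For the splits into positive and negative cells, cells were called after thinning to 5000 UMIs, shallower cells were left out, and the full counts were summed. Sums over 2 classes of the same organoid share that organoid by construction. The deviations of same-numbered sums correlated at 0.0861 to 0.468 across genes, and values with the organoid as a block are printed where they change a call named in the text or move a count named there by over 1.5 times. Genes were named as members, their antisense genes and *NR2F6*, as list members with the smallest adjusted p, as the 3 largest changes in each direction at 10 CPM or more in the higher group of both organoids, and as the 5 most like each member. Alternatives were DESeq2 1.42.0, other size factors (RLE), no low-count filter, the organoid block, stricter gates, predicted doublets removed, 10% of the library profile removed, 2 UMIs for a positive cell, unthinned calls, and leaving out each organoid. A few list genes enter the counts but are not reported here by name. The test was checked on simulated counts, where in nearly all comparisons more of its calls fell on unchanged genes than the threshold sets. Most of the smaller changes were missed in the cardiomyocyte split (30 of 100 recovered) and between mesenchyme and endoderm (21 of 100 recovered). Intervals are at the 95% level and cover counting error only. Sequences came from GENCODE v44 and its genome of the same build.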

Additional observations from a re-analysis of the deposited data

Results flagged for a closer look

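Both members were also present in cells outside the comparisons, at levels above those of erythroid cells, in which *NR2F2* was at 1.60 and 1.94 CPM and *NR2F1* at 0.107 and 0.251 CPM in organoids 32.7 and 33.10. Cells that met no gate (4560 and 5159) held *NR2F2* at 41.4 and 36.6 CPM and *NR2F1* at 7.23 and 5.84 CPM. Cells that met several gates (2195 and 2755), a set that can hold doublets, held *NR2F2* at 37.5 and 31.8 CPM and *NR2F1* at 8.64 and 6.30 CPM. What these cells are was not tested.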

How the results depend on the processing

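For the members between classes, directions and calls held under the alternatives run except as follows. With cells low in every other list, chosen after seeing the data, *NR2F1* in mesenchyme against endothelium came to 0.79 (adjusted p = 0.0679, range over alternatives 0.00601 to 0.0679) and *NR2F1* in epicardial-gated against other mesenchyme to -0.11. With the replicate block, *NR2F2* in epicardial-gated mesenchyme came to 0.53 (adjusted p = 0.0463, range 0.0463 to 0.894). Genes called in that comparison numbered 3 by the main test and 124 with the replicate block. They numbered 71 by DESeq2, 233 with no low-count filter and 7 with 10% of the library profile removed. Genes that differed in the endothelium split numbered 3642 with the replicate block. In the cardiomyocyte split they numbered 332 by DESeq2, 287 with no low-count filter, 162 with the replicate block and 115 with 10% of the library profile removed. In the mesenchyme split they numbered 1072 by DESeq2, 1369 with no filter, 1577 with the replicate block, 333 with stricter gates, 380 without predicted doublets, 1017 at 2 UMIs and 1094 unthinned. *NR2F6* in that split turned to -0.064 with no filter and -0.019 without predicted doublets. Unthinned, the mean share of cells with a UMI was 6.09% (*NR2F1*) and 27.5% (*NR2F2*) in endothelium, 7.81% and 27.3% in mesenchyme, 0.437% and 3.84% in cardiomyocytes and 0.396% and 2.86% in blood, and 13.9% for *NR2F1* in endoderm. Leaving out each organoid gave log2 ratios with no test, since no residual degrees of freedom remained: 0.50 to 1.40 for *NR2F1* and -1.08 to -0.84 for *NR2F2* in mesenchyme against endothelium, 4.30 to 4.31 for *NR2F1* in endothelium against blood, and -0.29 to 0.40 for *NR2F1* in epicardial-gated mesenchyme. Split counts could not be given that way. The cardiomyocyte *NR2F2* split could not be fitted with stricter gates, without predicted doublets, at 2 UMIs or with cells low in other lists, since fewer than 20 positive cells remained in at least 1 organoid. The causes were not tested.

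With 2 organoids of 1 line and 1 library each, the spread is that of these organoids alone. The 15 endoderm cells of organoid 33.10 limit that class, and the few UMIs of *NR2F1* limit every value in cardiomyocytes, blood and arterial-gated cells. A cell with no UMI of a member after thinning is not shown to lack it.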
